A study of Mus musculus with 6 samples.

Results

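The genes described here are 31 genes of cholesterol synthesis and transport, taken by symbol from the 38293 rows of a table of read counts per gene. They comprise 8 enzymes of the mevalonate pathway, 11 enzymes that turn farnesyl diphosphate into cholesterol, 5 regulators built around the SREBP transcription factors, and 7 genes of sterol transfer, efflux and turnover. Each symbol matched 1 row, and all 31 passed the low-count filter that left 14642 genes for testing. The lowest count of any of the 31 in any library was 122. The 6 libraries were made from wild-type primary cortical neurons of embryonic day 16 Swiss-Webster mice at day 13 in culture. CPM below is the read count scaled to library size with TMM factors, and a pair is the control and the NMDA library that carry the same replicate number. The 3 control libraries were labelled as untreated, and the 3 NMDA libraries came from cultures given 50 µM NMDA, the agonist of the NMDA class of glutamate receptors, for 10 minutes and then 50 minutes without drug. Etoposide, an inhibitor of topoisomerase II, appears in the growth protocol but in no label of these 6 libraries. The protocol speaks of a pair of biological replicates while 3 samples are listed in each group. The p-values here rest on the spread among those samples, pooled in part across genes, and that spread may be technical in part.

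Cholesterol is made from acetyl-CoA by way of mevalonate, isoprenoid diphosphates, squalene and lanosterol. When sterol in the endoplasmic reticulum is low, SCAP escorts the SREBP proteins to the Golgi for cleavage, and the released fragments switch on the enzymes' genes; INSIG proteins hold the complex back when sterol is plentiful. The brain makes its own cholesterol. Astrocytes deliver it on apolipoprotein E particles loaded by the transporters ABCA1 and ABCG1, and neurons dispose of it through the hydroxylase CYP46A1.

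SREBP proteins bind sterol response elements and work together with NF-Y, which binds CCAAT, and with Sp1, which binds GC boxes. RefSeq promoter sequences on GRCm38.p6 were held for 25 of the 31 genes (35 start sites), and the 250 bases before each start were searched on both strands for TCACNCCAC (a form of the sterol response element), CCAAT and the GC box GGGCGG. The CCAAT motif was found in 22 of the 35 (62.9%), against 33.85% of all 32851 promoters, and GGGCGG in 25 of the 35 (71.4%), against 32.74%. By gene, CCAAT was found for 21 of the 25 and GGGCGG for 22. The 32851 promoters were not limited to genes tested here, and a gene with several start sites counts once for each. The shares are therefore not matched for expression. TCACNCCAC was found in 1 of the 35, that of Hmgcs1, and in 1.05% of all promoters. No promoter sequence was held for Fdps, Fdft1, Sqle, Stard4, Npc1 and Abcg1, so these were not searched. A match is a description of the letters, not a binding site. The following 4 stretches are shown because they belong to the most abundant enzyme transcript, the enzyme that differed most between replicate numbers, the enzyme that rose most with NMDA within pairs, and a transporter that rose and holds no CCAAT; none overlaps an annotated exon. They read 5′ to 3′ on the gene's strand and end at the base before the start site. Capitals mark TCACNCCAC and CCAAT on either strand, so that ATTGG is CCAAT read from the other strand.
Hmgcs1, chr13:119690101-119690350, plus strand: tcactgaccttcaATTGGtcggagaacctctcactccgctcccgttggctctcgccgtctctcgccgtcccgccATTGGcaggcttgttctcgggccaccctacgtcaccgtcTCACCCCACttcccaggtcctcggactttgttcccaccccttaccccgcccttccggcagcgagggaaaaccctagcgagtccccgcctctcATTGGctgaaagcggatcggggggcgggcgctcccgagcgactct
Mvd, chr8:122443423-122443672, minus strand: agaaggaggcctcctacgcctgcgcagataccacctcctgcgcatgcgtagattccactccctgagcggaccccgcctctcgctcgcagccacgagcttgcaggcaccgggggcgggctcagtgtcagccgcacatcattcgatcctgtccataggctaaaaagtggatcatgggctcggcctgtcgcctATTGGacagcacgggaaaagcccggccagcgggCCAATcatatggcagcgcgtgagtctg
Pmvk, chr3:89454291-89454540, plus strand: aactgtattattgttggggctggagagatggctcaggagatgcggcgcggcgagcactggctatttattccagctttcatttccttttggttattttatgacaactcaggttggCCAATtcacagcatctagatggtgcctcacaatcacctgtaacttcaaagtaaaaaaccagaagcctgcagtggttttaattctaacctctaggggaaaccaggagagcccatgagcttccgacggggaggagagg
Abca1, chr4:53159896-53160145, minus strand: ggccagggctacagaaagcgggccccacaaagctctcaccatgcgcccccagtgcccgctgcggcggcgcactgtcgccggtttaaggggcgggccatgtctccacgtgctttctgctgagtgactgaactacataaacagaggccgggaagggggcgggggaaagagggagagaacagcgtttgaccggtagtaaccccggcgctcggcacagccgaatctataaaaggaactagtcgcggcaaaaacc
Hmgcs1 holds the match TCACCCCAC, starting 137 bases before the start site, with 3 CCAAT motifs, none of which it overlaps. Mvd has 2 CCAAT motifs, Pmvk has 1 at the start site shown, and Abca1 has 0. The GC boxes number 2 in Hmgcs1, 1 in Mvd, 0 in Pmvk and 2 in Abca1. Another listed start site of Pmvk, which overlaps its own exons, has 0 of either motif.

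Per kilobase of exon, Hmgcs1, which encodes the synthase of HMG-CoA, was the most abundant of the 31 transcripts, at a mean of 375 CPM per kb over the 6 libraries. Apoe followed at 333 CPM per kb. Idi1, the isopentenyl diphosphate isomerase, stood at 82.0, Cyp51, the lanosterol demethylase, at 64.1, and Insig1 at 62.0 CPM per kb. Sqle, the squalene epoxidase, at 56.3 and Fdft1, the squalene synthase, at 55.3 CPM per kb were close to one another. The lowest enzyme was Ebp, a sterol isomerase, at 3.83 CPM per kb, and the lowest of all was Abcg1 at 2.002. Srebf2, at 25.5 CPM per kb, was above Srebf1 at 8.55. Exonic lengths came from GENCODE M21 on GRCm38 and count every annotated exon, so a gene with many unused exons is understated.

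**Figure D1:**
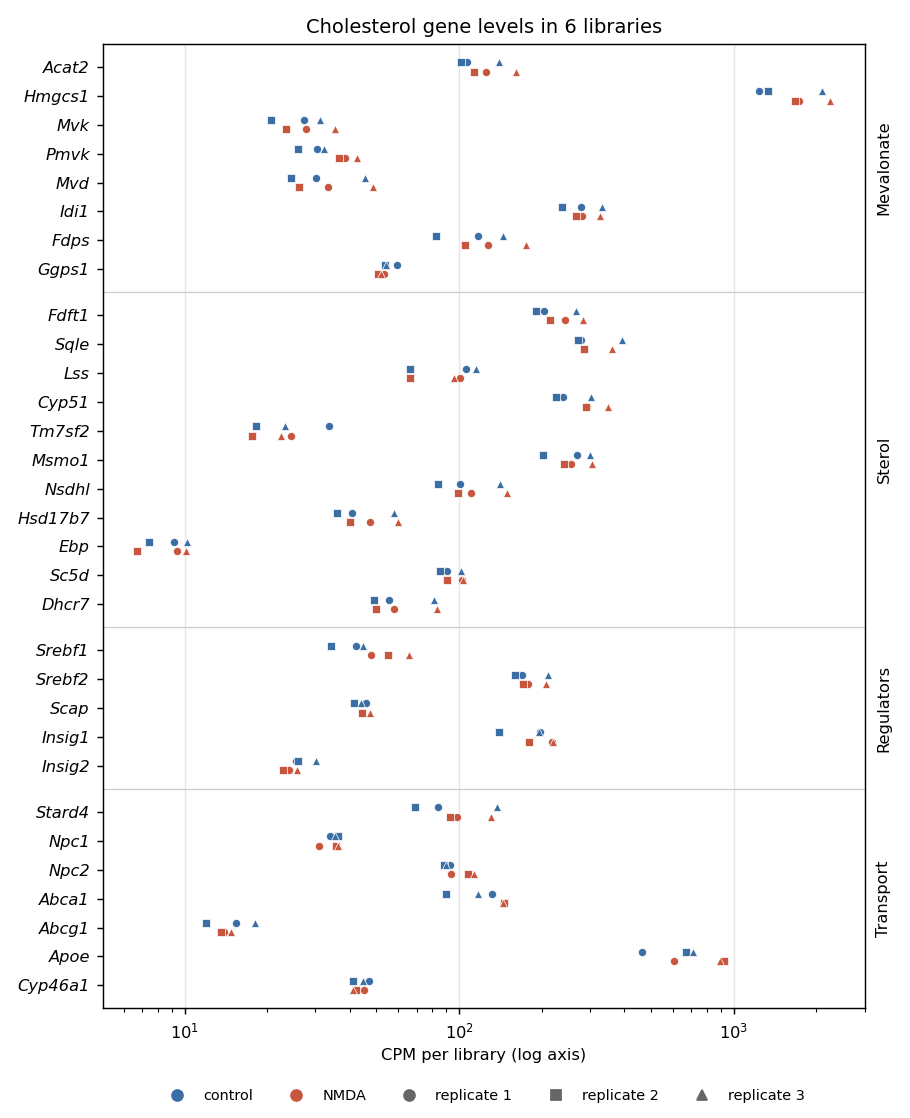
CPM of the 31 genes (rows, grouped by role) in each of the 6 libraries on a log axis; blue points are control and red points NMDA libraries, and the marker shape gives the replicate number. For most enzymes the triangles of replicate 3 lie to the right and the squares of replicate 2 to the left in both colours, and the 2 colours overlap.

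Many synthesis enzymes differed between replicate numbers, in the same order in control and NMDA libraries. Among the 19 enzymes, 16 were highest in replicate 3 in both groups, against 17.4% of all tested genes, and 18 were lowest in replicate 2 in both groups, against 13.6%. Lss, Ggps1 and Tm7sf2 were the 3 not highest in replicate 3, and Hmgcs1 was the 1 not lowest in replicate 2. In edgeR's fit with the replicate number as a term, added after the data were seen, that term passed an adjusted p of 0.05 for 15 of the 19, against 15.8% of all tested genes. Replicate 3 exceeded the mean of replicates 1 and 2 (log scale, both groups together) by a median of 1.29-fold over the 19, from 0.981-fold for Ggps1 to 1.65-fold for Mvd, the mevalonate diphosphate decarboxylase.

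Mvd shows the size of this difference. In replicates 1, 2 and 3 its control CPM was 30.2, 24.4 and 45.6, and its NMDA CPM was 33.3, 26.2 and 48.5 (replicate term, edgeR adjusted p = 1.02e-05). Each NMDA library lay slightly above its own control, and the controls alone spanned 1.87-fold. Dhcr7, the last reductase of one branch of the pathway, stood at 55.4, 49.0 and 80.9 CPM in control and 57.9, 49.8 and 83.4 CPM in NMDA libraries. Stard4, which carries sterol between membranes and is itself an SREBP target, had the widest control range of the 31, at 83.5, 69.0 and 137 CPM, and its NMDA libraries were at 98.4, 93.0 and 131 CPM. Outside the enzymes the replicate term passed for 4 of 12 genes, namely Srebf2, Insig1, Stard4 and Apoe. Scap, Npc1, Npc2 and Cyp46a1 differed little between replicate numbers: replicate 3 was between 0.979-fold and 1.05-fold of the others.

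Astrocyte markers differed between the same replicate numbers. Of 10 such markers, 6 were highest in replicate 3 in both groups (17.4% of all tested genes) and 7 passed the replicate term (15.8% of all tested genes). Over replicates 1, 2 and 3 they summed to 2334, 2420 and 3086 CPM without NMDA, and to 2556, 3125 and 3858 CPM after it. This sum was highest in replicate 3, and single markers varied: Gja1 and Aqp4 were lowest in replicate 1 in both groups, and Slc1a2 in replicate 2. The 3 that did not pass the replicate term were Aldoc, Aldh1l1 and S100b. Summed oligodendrocyte markers were 200 CPM in control and 175 CPM in NMDA replicate 1, and 39.4 to 47.0 CPM in the other 4 libraries. The part of cell makeup in the differences between replicate numbers was not tested, and in bulk RNA fewer cells of a type and less RNA per cell cannot be told apart.

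**Figure D2:**
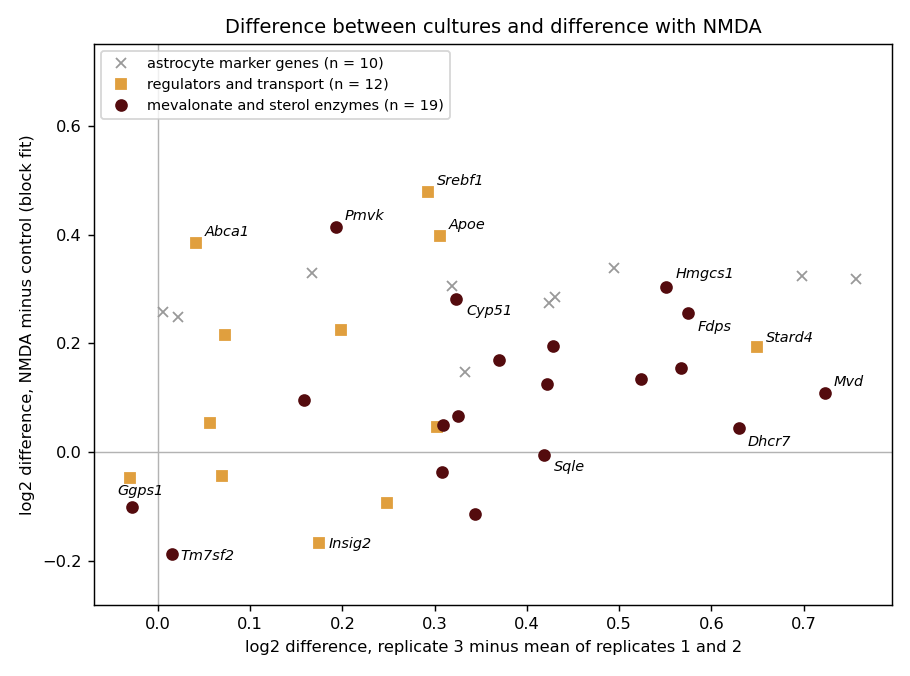
For each gene, the log2 difference of replicate 3 from the mean of replicates 1 and 2 (horizontal) against the log2 difference of NMDA from control in the fit with the replicate block (vertical); dark circles are the 19 enzymes, squares the other 12 genes and crosses 10 astrocyte markers. Mvd, Dhcr7 and Stard4 lie far to the right, while Pmvk, Srebf1, Apoe and Abca1 lie high.

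The stimulation itself was visible in all libraries: 8 activity-induced genes, among them Fos, Egr1 and Nr4a1, rose between 3.10-fold and 103-fold (edgeR adjusted p from 3.23e-06 to 0.00562). Against this, none of the 31 cholesterol genes passed edgeR's test of NMDA against control without pairing, while 0.376% of all 14642 genes were called higher and 0.0546% lower (0.430% in either direction). The smallest adjusted p was 0.183, for Pmvk. At an unadjusted p under 0.05 edgeR found 4 higher (Pmvk, Srebf1, Npc2 and Abca1) and 0 lower, where 5.19% and 8.47% of all genes were. DESeq2 and limma-voom also called 0. The 3 NMDA libraries lay above the 3 controls for those same 4 genes (8.18% of all genes) and below them for Ggps1 alone (11.1% of all genes).

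Within pairs, 7 of the 31 rose and 0 fell (edgeR with the replicate block, adjusted p from 0.00139 to 0.0393), which is 22.6% of them. In the same fit 5.65% of all genes rose and 8.35% fell, or 828 and 1223 genes; with GC content and length offsets that split was 1160 and 964. The 7 were Hmgcs1, Pmvk and Fdps of the mevalonate pathway, Cyp51 of the sterol steps, the regulator Srebf1, and Apoe and Abca1 of lipid export. Their changes were modest, from 1.19-fold to 1.39-fold. DESeq2 with the same block called the same 7, beside 3.36% of all genes higher and 3.60% lower. NMDA exceeded control in all 3 pairs for 17 of the 31 and was below it in all 3 for 3, namely Ggps1, Tm7sf2 and Insig2, against 22.5% and 25.7% of all genes. The median log2 change within pairs was 0.11 over the 31 and over the 19 enzymes, beside -0.0036 over all tested genes. The calls depended on single pairs: without both libraries of replicate 2 only Pmvk and Srebf1 passed, without those of replicate 1 Hmgcs1 did not, and without those of replicate 3 Fdps did not. The sign of the enzymes' median without pairing also rested on single libraries: it was -0.02 without control replicate 2 and -0.033 without NMDA replicate 3, and 0.29 without control replicate 3.

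**Figure D3:**
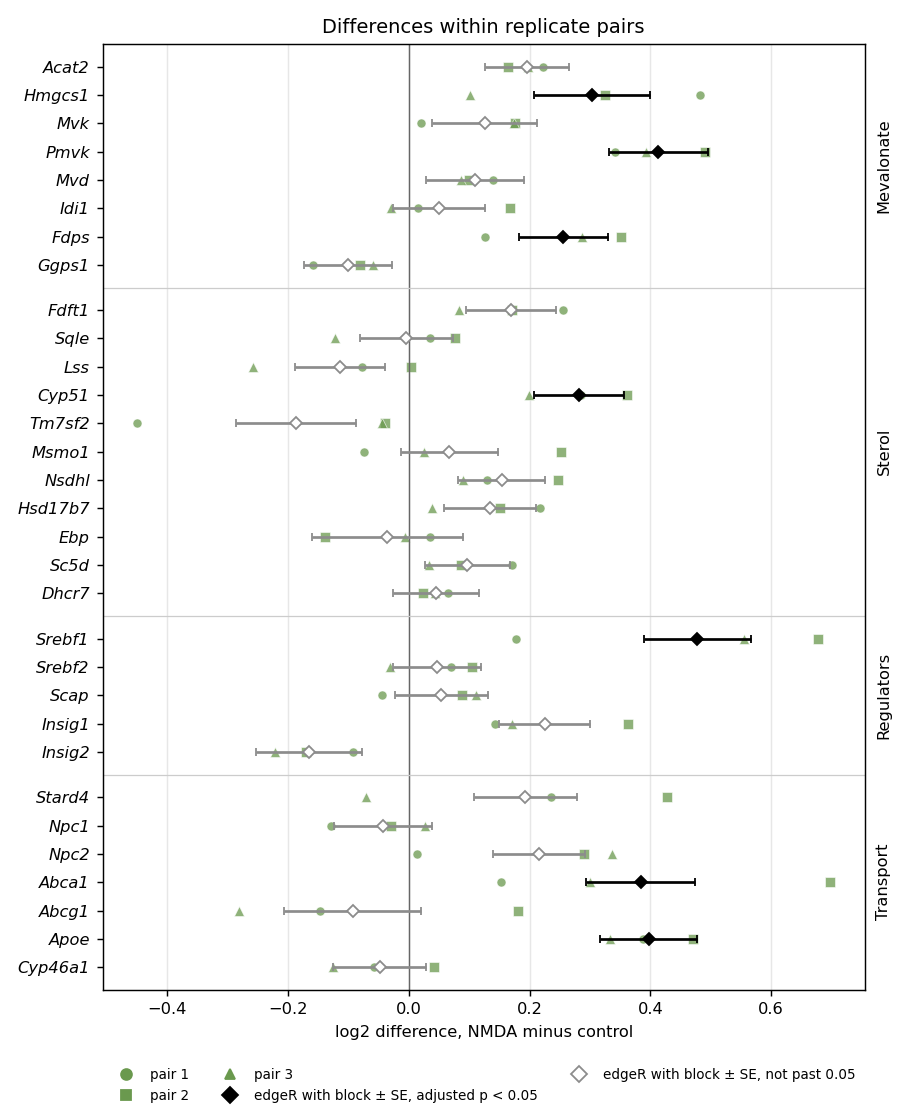
Log2 difference of NMDA from control for each of the 31 genes (rows, grouped by role); green markers are the 3 pairs, and diamonds with bars are the edgeR estimate with the replicate block ± SE, filled black where the adjusted p was under 0.05. The 7 filled diamonds all lie right of 0, at 0.26 to 0.48.

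Among the mevalonate enzymes, Pmvk, the phosphomevalonate kinase, gave the clearest separation. Its CPM was 30.3, 25.9 and 32.3 in control and 38.5, 36.5 and 42.6 in NMDA replicates 1, 2 and 3. Every NMDA library was above every control, and the log2 change was 0.41 ± 0.11 (SE) without the block and 0.41 ± 0.08 with it (edgeR adjusted p = 0.183 and 0.00199). Hmgcs1 was at 1243, 1338 and 2098 CPM in control and 1736, 1676 and 2252 CPM in NMDA libraries. Each NMDA library exceeded its own control, but control replicate 3 exceeded NMDA replicates 1 and 2. The log2 differences of Hmgcs1 in pairs 1, 2 and 3 were 0.48, 0.32 and 0.10 (0.30 ± 0.10 with the block, edgeR adjusted p = 0.0393; 0.28 ± 0.21 and 0.591 without it).

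Fdps, the farnesyl diphosphate synthase at which the sterol and isoprenoid branches part, was at 117, 82.2 and 144 CPM in control and 128, 105 and 176 CPM in NMDA libraries. The groups overlapped, and each pair moved upward, by 0.26 ± 0.07 on the log2 scale with the block (edgeR adjusted p = 0.0246). The annotated gene Gm43738 shares 26.7% of the exonic bases of Fdps on the same strand, so its count is uncertain to that extent. Acat2, a cytosolic thiolase at the pathway's entry, was at 107, 101 and 140 CPM in control and 125, 114 and 161 CPM in NMDA libraries. Its log2 difference was similar in the 3 pairs (0.22, 0.17 and 0.20) and did not pass (0.20 ± 0.07, edgeR adjusted p = 0.0702 with the block). Ggps1, which makes geranylgeranyl diphosphate for protein prenylation, was at 59.4, 53.8 and 54.2 CPM in control and 53.1, 50.8 and 52.0 CPM in NMDA libraries. All NMDA libraries of Ggps1 were below all controls, but narrowly (highest NMDA 53.1, lowest control 53.8 CPM). The log2 difference of -0.10 ± 0.07 did not pass (edgeR adjusted p = 0.39 with the block). With GC content and length offsets added to that fit it was -0.03 ± 0.07 (edgeR adjusted p = 0.853). Mvk, the mevalonate kinase, Mvd and Idi1 had block estimates of 0.13, 0.11 and 0.05 and did not pass.

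Of the 11 later enzymes, Cyp51 passed within pairs and the others did not. Cyp51 was at 240, 225 and 304 CPM in control and 293, 289 and 349 CPM in NMDA libraries. Control replicate 3 lay above NMDA replicates 1 and 2, and the log2 change was 0.28 ± 0.07 with the block (edgeR adjusted p = 0.0162; 0.28 ± 0.13 and 0.379 without it). Sqle, a rate-limiting step of the sterol branch, gave a value near 0: 279, 271 and 391 CPM in control against 286, 286 and 360 CPM in NMDA libraries (log2 -0.00 ± 0.08 with the block). Its neighbours in the pathway did not share one direction. Fdft1 stood at 0.17 ± 0.07 and Lss, the lanosterol synthase, at -0.11 ± 0.07, and neither passed (edgeR adjusted p = 0.14 and 0.33 with the block). Nsdhl, a sterol dehydrogenase, stood at 0.15, Hsd17b7, a sterol ketoreductase, at 0.13, Sc5d, a desaturase, at 0.10, Msmo1, the sterol methyl oxidase, at 0.07 and Dhcr7 at 0.05. Ebp was at -0.04. Tm7sf2, a sterol reductase that shares 12.1% of its exonic bases with Vps51 on the same strand, had the lowest estimate of the 31, -0.19 ± 0.10, and most of it came from pair 1 (-0.45, against -0.04 in each of the other pairs).

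Summed over the 19 enzymes, the level was 3322, 3120 and 4670 CPM in control and 3953, 3701 and 4915 CPM in NMDA replicates 1, 2 and 3. The ratio within pairs was 1.19, 1.19 and 1.05. Hmgcs1 alone supplied 1560 ± 469 of the 3704 ± 843 CPM of the controls (mean ± SD, n = 3). Without it the ratios were 1.07, 1.14 and 1.04. Control replicate 3 stood above NMDA replicates 1 and 2 in either sum.

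**Figure D4:**
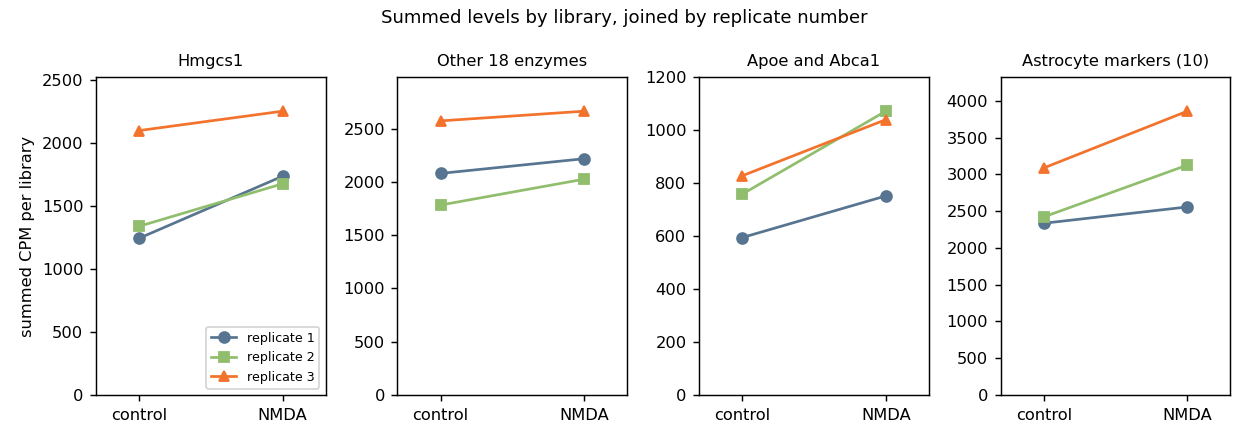
Summed CPM per library (vertical, from 0) for Hmgcs1, the other 18 enzymes, Apoe with Abca1, and 10 astrocyte markers; each line joins the control and NMDA library of 1 replicate number. All lines slope upward, and replicate 3 starts highest in every panel.

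Among the regulators, Srebf1 rose and Srebf2 did not pass. Srebf1, whose product acts mainly on fatty acid genes, was at 42.1, 34.1 and 44.5 CPM in control and 47.7, 54.9 and 65.7 CPM in NMDA libraries. The groups did not overlap, and the log2 change was 0.48 ± 0.14 without the block and 0.48 ± 0.09 with it (edgeR adjusted p = 0.196 and 0.00139), the largest estimate of the 31. Pair 1 moved least, by 0.18, against 0.68 and 0.55 in pairs 2 and 3. Without a low-count filter, edgeR called it without pairing as well (adjusted p = 0.0493). Srebf2, the main driver of the sterol enzymes, was at 170, 159 and 212 CPM in control and 178, 171 and 207 CPM in NMDA libraries, with a block estimate of 0.05 ± 0.07. Srebf1 minus Srebf2 was not tested as a difference.

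The INSIG genes gave estimates of opposite sign, and neither passed. Insig1, an SREBP target that restrains SREBP release, was at 197, 140 and 196 CPM in control and 217, 180 and 221 CPM in NMDA libraries (0.22 ± 0.07 with the block, edgeR adjusted p = 0.0515). It passed in the block fit with DESeq2 size factors (adjusted p = 0.0424), with GC content and length offsets (0.0475) and without replicate 1 (0.00881). Insig2, which is not driven by SREBP in the same way, was at 25.6, 25.9 and 30.0 CPM in control and 23.9, 22.9 and 25.7 CPM in NMDA libraries. It was lower in each pair, at -0.17 ± 0.09 with the block (edgeR adjusted p = 0.222). Scap stood at 0.05 ± 0.08.

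The export genes Apoe and Abca1 had the next largest changes after Srebf1 and Pmvk. Apoe was at 463, 669 and 711 CPM in control and 605, 927 and 896 CPM in NMDA libraries. Replicate 1 was the lowest in both groups, and NMDA replicate 1 lay below control replicates 2 and 3. The pairs agreed closely, with log2 differences of 0.39, 0.47 and 0.33, and the estimate was 0.40 ± 0.20 without the block and 0.40 ± 0.08 with it (edgeR adjusted p = 0.412 and 0.00226). Abca1, which loads lipid onto apolipoprotein particles, was at 132, 89.8 and 117 CPM in control. Its NMDA libraries were nearly equal, at 146, 146 and 144 CPM, all above the controls. The log2 differences were 0.15, 0.70 and 0.30, so the size of each depended on its control (0.38 ± 0.09 with the block, edgeR adjusted p = 0.00911; 0.37 ± 0.13 and 0.258 without it).

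Astrocyte markers rose in the same fit, and Apoe and Abca1 are known to be made by astrocytes. Of the 10 markers, 8 passed within pairs and 0 without pairing, beside 5.65% of all genes that rose within pairs and 8.35% that fell. Their block estimates lay between 1.11-fold and 1.27-fold. Apoe, higher by 31.7%, and Abca1, higher by 30.5%, were above that range, and the difference was not tested. The median log2 differences of the markers in pairs 1, 2 and 3 were 0.19, 0.32 and 0.31. Of 8 progenitor and cycling markers 4 rose within pairs, and of 8 tested fibroblast and mural markers 2 rose. Of 13 inhibitory neuron markers 1 rose, and of 6 oligodendrocyte markers 1 fell. From a single call in a list this short nothing is read. Of 2 tested endothelial (6 listed), 3 tested microglia (11 listed) and 5 oligodendrocyte precursor markers 0 passed. Of the markers of microglia, another source of Apoe, the receptors Cx3cr1 and Csf1r and the integrin Itgam stayed under 1 CPM in every library. Summed excitatory neuron markers were 1378, 1258 and 1385 CPM in control and 1280, 1080 and 1161 CPM in NMDA libraries. Camk2a made most of that fall: its mean went from 679 to 518 CPM, and the mean of the sum from 1341 to 1174 CPM. Within pairs 1 of the 10 was higher (Neurod2) and 1 lower (Camk2a), and 4 block estimates were positive and 6 negative. The part of cell makeup in the changes of Apoe, Abca1 and the enzymes was not tested.

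The other transport genes gave smaller values. Npc2, which hands cholesterol on inside the lysosome, was at 92.9, 88.4 and 89.4 CPM in control and 93.8, 108 and 113 CPM in NMDA libraries. Every NMDA library lay above every control, pair 1 by a log2 difference of 0.01 only, and the block estimate of 0.22 ± 0.08 did not pass (edgeR adjusted p = 0.0647). It passed without replicate 1 (adjusted p = 0.00163) and with GC content and length offsets (0.0332). Its partner Npc1 stood at -0.04 ± 0.08, Abcg1 at -0.09 ± 0.11 and Stard4 at 0.19 ± 0.09. Stard4 passed in the block fit without replicate 3. Cyp46a1, the neuronal enzyme of cholesterol disposal, was at 47.0, 41.0 and 44.8 CPM in control and 45.1, 42.2 and 41.0 CPM in NMDA libraries, with a block estimate of -0.05 ± 0.08.

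Other genes of sterol and lipid handling were read from 5 lists that hold none of the 31, beside the 5.65% of all genes that rose and the 8.35% that fell within pairs. For the fatty acid, isoprenoid and SREBP processing lists the counts were close to those shares, and nothing is read from them about the lists. Of 14 fatty acid synthesis genes driven by SREBP-1, 1 rose within pairs (Elovl5, a fatty acid elongase, 0.35 ± 0.07) and none passed without pairing. Of the 14 block estimates 12 were positive and the median was 0.18, beside 7213 of all 14642 genes and a median of -0.0036. The direction of the list as a set was not tested. Of 21 genes of sterol uptake, storage and transfer, 6 fell and 1 rose within pairs, and the median was -0.10. The lipid transporters Abca2 (-0.50 ± 0.07) and Abca7 (-0.67 ± 0.16) and Gramd1a (-0.31 ± 0.07), which moves sterol from the plasma membrane inward, fell. Clu, an apolipoprotein also made by astrocytes, rose (0.36 ± 0.08).

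Of 8 nuclear receptors and partners around LXR, the sterol sensor that acts on Abca1, Apoe and Srebf1, 0 rose and 2 fell within pairs. Rxrg, a retinoid X receptor, changed by -0.85 ± 0.22 from 3.33 ± 0.734 to 1.82 ± 0.129 CPM. Mylip, an LXR target that marks lipoprotein receptors for degradation, changed by -0.46 ± 0.11 from 14.7 ± 1.44 to 10.6 ± 0.944 CPM (mean ± SD, n = 3; edgeR adjusted p with the block = 0.0151 and 0.00827). Among 11 genes of SREBP processing and sterol-regulated degradation, Ube2g2, a ubiquitin-conjugating enzyme, rose (0.34 ± 0.10) and Mbtps2, the membrane protease that frees SREBP, fell (-0.23 ± 0.07). Of 12 isoprenoid branch genes 1 rose, Pdss2, needed for ubiquinone (0.34 ± 0.11). None of the genes in these 5 lists passed without pairing.

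On GRCm38, Hmgcs1 (ENSMUSG00000093930) lies on chromosome 13 from 119690379 to 119708260, Pmvk (ENSMUSG00000027952) on chromosome 3 from 89454541 to 89469013 and Fdps (ENSMUSG00000059743) on chromosome 3 from 89093588 to 89101959. Cyp51 (ENSMUSG00000001467) lies on chromosome 5 from 4081145 to 4104746 and Srebf1 (ENSMUSG00000020538) on chromosome 11 from 60199089 to 60222581. Apoe (ENSMUSG00000002985) lies on chromosome 7 from 19696109 to 19699188 and Abca1 (ENSMUSG00000015243) on chromosome 4 from 53030787 to 53159895. All 31 are annotated as protein coding. Exons of 9 of the 31 overlap a gene on the opposite strand, by at most 18.3% of their exonic bases (Fdft1 with Ctsb), and the strand setting of the counting is not given in the sources used here.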

How the data were processed

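RNA was measured in 6 libraries. The authors deposited raw read counts per Ensembl gene, 1 column per library, with totals of 15417234 to 19183999. Per the submitters' processing notes the tools were Trimmomatic, TopHat and HTSeq, on mm10 or GRCm38.p6. Their versions, the strand option and the gene annotation were not given in the sources used here. Rows without a symbol (2153, 0.219% to 0.246% of counts) stayed in the tests by their identifier. All genes were tested with edgeR 4.0.16 in R 4.3.3: filterByExpr at a count of 10 and a total of 15, TMM scaling, robust quasi-likelihood F tests on group alone, Benjamini-Hochberg adjustment over all tested genes, threshold 0.05. The members, lists and tests were chosen with earlier results of these data known.

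Same-numbered libraries had deviations from their group means that correlated at 0.57, 0.42 and 0.52 (other combinations -0.43 to -0.01). All exceeded 0.1, and same-numbered libraries were treated as pairs; this comes from the data, not the labels. The blocked fit, with replicate number as a term, was added to the test on group alone after the data were seen. It leaves 2 residual degrees of freedom, where the test on group alone leaves 4. Its p-values therefore lean on the spread shared across genes. Most estimates of single genes above come from the blocked fit. Log2 differences of single pairs use CPM plus 0.5.

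All members were accounted for; values in every library were given for members past the threshold in either fit, further members by p until 12, and the most abundant of each role, and others were named after their values were seen. Alternatives were DESeq2 1.42.0, limma-voom (limma 3.58.1), other scalings and filters, GC and length offsets (mgcv 1.9.3, covering 99% of tested genes) and left-out libraries. The scripts were tested on simulated counts. Lengths and positions came from GENCODE M21. Figures were drawn with matplotlib 3.10.9.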

Additional observations from a re-analysis of the deposited data

How the results depend on the processing

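The count of the 31 genes called higher was 0 without pairing, and also with limma-voom, the DESeq2 Wald test, upper quartile scaling, DESeq2 size factors, a filter of 1 CPM in all 3 libraries of a group, and without each of the 6 libraries in turn (0 to 0). It was 1 without a low-count filter. With the replicate block it was 7, with the block and the DESeq2 Wald test 7, with the block and DESeq2 size factors 8, with the block plus offsets for GC content and length 9, and with the block without both libraries of 1 replicate number 2 to 8. The count called lower was 0 in every one of these settings. The 12 genes described by rule kept their sign under all 19 alternatives. Over all tested genes, 55 were higher and 8 lower without pairing. These became 150 and 150 with the DESeq2 Wald test, 130 and 130 without a filter, 828 and 1223 with the block, 444 and 475 with the block in DESeq2, 926 and 1151 with the block and DESeq2 size factors, 1160 and 964 with the block and offsets, and 335 to 1341 and 683 to 1366 with the block and 1 replicate number left out. Lower genes were 5 with DESeq2 size factors. Leaving out 1 library gave 19 to 89 higher and 0 to 57 lower. The offsets moved the median log2 change of all genes from -0.0036 to 0.0236; the enzymes' median was 0.109 with the block and 0.113 with the offsets. Why the counts differ between settings was not tested.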
